A study of Mus musculus with 2 samples.

Results

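Cxcr3, Cxcr4, Cxcr5, Cxcr6, Ccr2, Ccr6 and Ccr9 encode chemokine receptors that guide T cells to inflamed sites, B cell follicles, bone marrow, gut and other tissues. Their messenger RNA was compared between splenic CD8+CD122+ and CD8+CD122- cells, sorted from C57BL/6 mice. CD122, a chain shared by the receptors for interleukin 2 and interleukin 15, defines the gate, and the series calls CD8+CD122+ cells regulatory T cells. Ages, the number of mice and any pooling are not given in the sources used here, and no agent or transgene is named. Amplified RNA of both populations was hybridised together to each of 2 two-colour Agilent arrays. On array 1 the CD122+ population was labelled with Cy5 and the CD122- population with Cy3, and on array 2, a repeat trial by its label, the dyes were exchanged. They were found as the probes, controls aside, that bear one of the 7 gene symbols in either scanner file. That gave 7 probes (5 of them so named on array 1 and all 7 on array 2). The Cxcr5 probe, listed under a clone name on array 1 and its old symbol Blr1 on array 2, was added through its RefSeq accession. These 8 probes of 7 genes were measured among 41174 probes under 27775 gene names. Cxcr4 had 2 probes and each of the other 6 genes had 1.

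Chemokine receptors are G protein-coupled receptors of the cell surface that steer migrating leukocytes along gradients of small secreted chemokines. CXCR3 binds the interferon-induced chemokines CXCL9, CXCL10 and CXCL11 and is a marker of memory and type 1 effector T cells. CXCR4 binds CXCL12 of the bone marrow, CXCR5 binds CXCL13 of B cell follicles, CXCR6 binds CXCL16, CCR2 binds CCL2 and related monocyte chemokines, CCR6 binds CCL20, and CCR9 binds CCL25 of the thymus and small intestine.

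The sort and the arrays were checked first. Il2rb, the gene of CD122, had a log2 ratio of CD8+CD122+ over CD8+CD122- of 2.60 on array 1 and 2.34 on array 2, and every log2 ratio below has this direction, opposite to that of the deposited value table. T cell markers were bright in both populations, with Cd8b1 spot signals between 18355 and 55444, whereas the Cd4 spot signals lay between 103 and 143. Between 69.5% and 83.4% of spots that are not controls were well above background, by population and array. A probe was tested if it was well above background in a population on both arrays, which held for 30794 probes and all 8 members. Xist, the noncoding RNA of X inactivation, had 4 probes, 2 of them tested, which differed unequally between the arrays. In CD8+CD122+ and CD8+CD122- cells, 1 probe had spot signals of 92.9 and 104 on array 1 and of 1440 and 1191 on array 2. Its log2 ratios after normalisation were 0.03 on array 1 and 0.92 on array 2. The other tested probe had spot signals of 289 and 236 on array 1 and 526 and 762 on array 2. Its log2 ratios were 0.08 and 0.02. The 2 probes not tested had log2 ratios of 0.04 and 0.58, and of -0.02 and -0.17. The labels do not say that the trials used separate mice, so p-values measure only the spread between 2 arrays, whose small number limits the precision. In addition, dye orientation, trial and scanner software version changed together between the arrays and cannot be told apart where the arrays differ.

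The receptors differed in direction. Cxcr3 and Cxcr5 were higher in CD8+CD122+ cells, Ccr9 was lower, and Cxcr4, Ccr2, Ccr6 and Cxcr6 did not reach 2-fold on both arrays. The threshold of size was a 2-fold difference or more, of one sign, on each array. It was met by 2 of the 8 probes upward, against 0.253% of all probes tested, and by 1 downward, against 0.0812%. The members were chosen with earlier results of these data known. These counts therefore describe the members and lend no support to them as a group. Log2 ratios were positive on both arrays for 5 probes (27.8% of all probes), negative on both for 2 (25.6% of all probes) and of opposite sign for 1. The median of the 8 mean log2 ratios was 0.45, and that of all probes tested was 0.00. Fitted across all probes, limma called 0 probes at a Benjamini-Hochberg adjusted p under 0.05 (0% of all probes), with a smallest adjusted p of 0.146 over all probes and of 0.374 over the members. At an unadjusted p under 0.05, limma found 4 member probes higher, against 2.62% of all probes, and 1 lower, against 3.49%. Among the 4 is Ccr2, which was tested only through CD8+CD122+ cells, the population where it is higher. Ccr2 is also among the 5 positive probes and in the median of the 8, where Cxcr4 enters with 2 probes. The 4, the 5 and this median therefore lend no support to the members as a group. The statements on direction below therefore rest on the values of both arrays and not on an adjusted p.

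**Figure D1:**
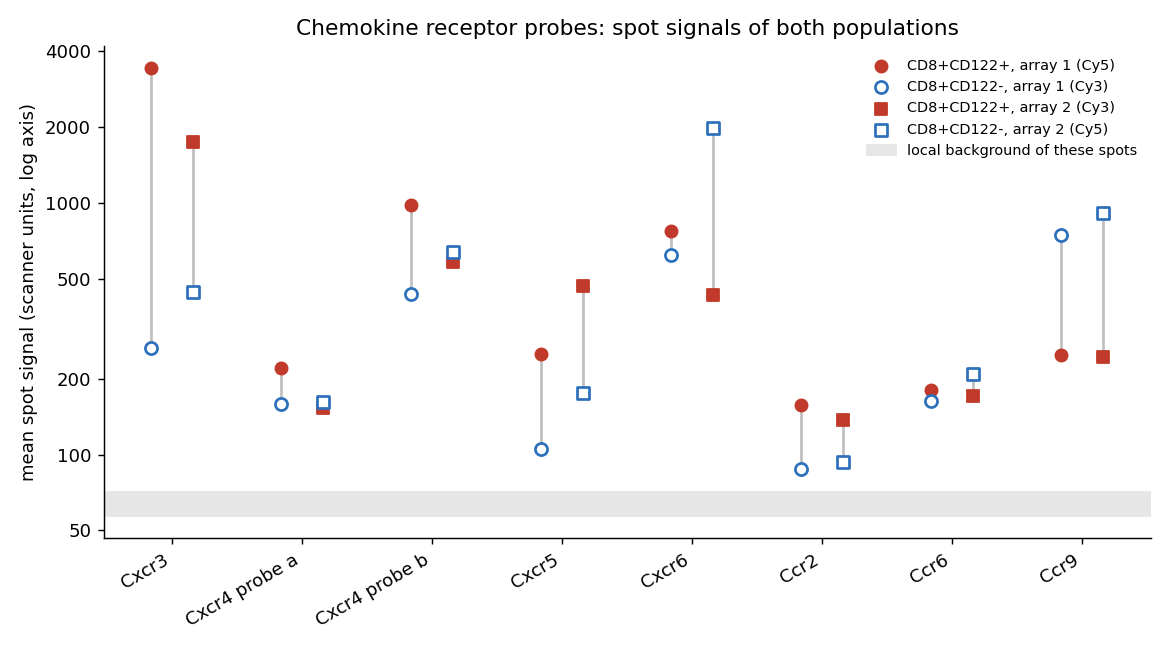
Mean spot signal in scanner units (log axis) of each receptor probe in CD8+CD122+ cells (filled red) and CD8+CD122- cells (open blue) on array 1 (circles) and array 2 (squares), before dye normalisation, with the range of local background as a grey band. The Cxcr3 signals of CD8+CD122+ cells, 3414 and 1741, lie above those of CD8+CD122- cells on both arrays, the Ccr9 signals lie below, and Ccr2 lies closest to the background.

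Promoter sequences of Cxcr3 and Ccr9, the receptors with the highest and the lowest ratio, are shown because their ratios had opposite signs on both arrays. Each is the 250 bases before the annotated start, read 5′ to 3′ from RefSeq on build GRCm38.p6, at chrX:101734148-101734397 on the minus strand for Cxcr3 and at chr9:123766961-123767210 on the plus strand for Ccr9. Capitals mark matches to any of the 5 motifs searched.
Cxcr3: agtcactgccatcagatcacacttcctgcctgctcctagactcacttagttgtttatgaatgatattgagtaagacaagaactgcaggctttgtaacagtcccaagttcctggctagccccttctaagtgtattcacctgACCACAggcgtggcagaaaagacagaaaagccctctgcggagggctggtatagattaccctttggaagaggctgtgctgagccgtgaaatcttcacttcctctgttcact
Ccr9: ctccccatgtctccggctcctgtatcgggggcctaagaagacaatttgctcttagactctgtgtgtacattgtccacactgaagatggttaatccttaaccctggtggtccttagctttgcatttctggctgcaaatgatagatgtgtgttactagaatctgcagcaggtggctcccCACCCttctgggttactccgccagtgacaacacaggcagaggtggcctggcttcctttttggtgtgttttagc
The motifs were searched on both strands in 32851 such windows of the reference table, 7 of them from 6 of the receptor genes (Cxcr5 is named only). The capitals are a RUNX motif (TGTGGT, read on the other strand) in Cxcr3 and a KLF motif (CACCC) in Ccr9, 1 match in each window. The RUNX letters stood in 2 of the 7 receptor windows, those of Cxcr3 and Cxcr6, and in 14.0% of all windows. The T-box letters GGTGTGA stood in 0 of the 7 and in 3.33% of all windows. The KLF letters stood in the windows of Ccr9 and Cxcr4 and in 52.0% of all windows. GATA letters (AGATAA) stood in the Ccr2 window and in 1 of the 2 Ccr6 windows, and in 9.99% of all. STAT letters (TTCNNNGAA) stood in the other Ccr6 window and in 7.02% of all. The Cxcr4 window was the richest of the 7 in G and C, at 61.2%, and the Ccr2 window the poorest, at 37.2%, against a median of 52.4% over all windows. A match is a description of letters in this window and not of binding.

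Cxcr3, the receptor for interferon-induced chemokines, had the highest ratio among the members. Its spot signals were 3414 on array 1 and 1741 on array 2 in CD8+CD122+ cells, and 265 and 443 in CD8+CD122- cells. Before dye normalisation, the lower CD8+CD122+ signal was still above both CD8+CD122- signals. How many of all probes are separated in this way was not counted, here or for the members below. After background correction and loess normalisation the log2 ratio was 3.37 on array 1 and 2.66 on array 2, with a mean of 3.02 ± 0.50 (SD, n = 2 arrays), which is 8.09-fold. Of the 30794 probes, 12 had a higher mean ratio. The limma p was 0.000924 before and 0.374 after adjustment, with a 95% interval of the mean log2 ratio from 2.32 to 3.72. By the distance between pairs of array ratios, a description over only 2 arrays, the named genes nearest to Cxcr3 were the Ly49 receptor gene Klra23 (distance 0.31), 5830411N06Rik (0.64) and the interferon gamma gene Ifng (0.68).

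Ccr2, the receptor that draws monocytes and memory T cells to CCL2, was dim. Its spot signals were 157 and 137 in CD8+CD122+ cells on arrays 1 and 2, and 87.9 and 93.3 in CD8+CD122- cells, where the signal of array 1 was not well above background. That was the 1 of 32 member readings below this level, and no member spot was saturated. Both CD8+CD122+ signals were above both CD8+CD122- signals before dye normalisation. The log2 ratios were 1.18 and 0.78, with a mean of 0.98 ± 0.28 (SD, n = 2). Array 2 kept Ccr2 just under 2-fold, at 1.72-fold against 2.27-fold on array 1. The limma p was 0.00546 before and 0.603 after adjustment. Ccr2 entered the test only through CD8+CD122+ cells, where it is higher, so this p lends no support to the difference. The offset of 50 added in the background correction shrinks ratios of dim probes. With the scanner's processed signals, which carry no such offset, the Ccr2 log2 ratios were 3.62 and 2.37, and with an offset of 16 they were 2.03 and 1.33, past 2-fold on both arrays in either case (0.646% and 0.39% of all probes reached 2-fold upward under these settings). The size of the Ccr2 difference thus depended on the treatment of background, while its sign was positive on both arrays under each setting run.

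Markers of monocytes and macrophages, cells that carry CCR2, were read beside it. Of 11 such genes on the array 7 were tested, 0 of them were 2-fold apart on both arrays (0.31% upward and 0.105% downward among all genes by their brightest probe), 6 were positive on both arrays and 0 negative on both (29.2% and 24.1% of all genes). Their mean log2 ratios ran from 0.00 to 0.92 with a median of 0.08, against 0.01 over all genes. The lysozyme gene Lyz2 had 0.55 ± 0.31 (SD, n = 2). The transcription factor gene Cebpb had 0.92 ± 0.47 (SD, n = 2) on its brightest probe and a mean of 0.21 on its other tested probe. The macrophage markers Csf1r, Cd14, Adgre1 and Cd68 lay at 0.08, 0.05, 0.00 and 0.02. Itgam, S100a8, S100a9 and Cybb were too dim to be tested. Summed spot signals of the 7 genes, before dye normalisation, were 1802 and 2322 in CD8+CD122+ cells and 1304 and 2169 in CD8+CD122- cells on arrays 1 and 2. The part of monocyte RNA in the Ccr2 result was not tested.

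Cxcr5, the receptor that leads B cells and follicular T cells into B cell follicles, was also higher in CD8+CD122+ cells. Its spot signals there were 252 on array 1 and 468 on array 2, and 105 and 176 in CD8+CD122- cells. Before dye normalisation, both CD8+CD122+ signals were above both CD8+CD122- signals. The log2 ratios were 1.36 and 2.01, with a mean of 1.69 ± 0.46 (SD, n = 2; 3.22-fold), and limma gave a p of 0.00382 before and 0.554 after adjustment. In contrast to Cxcr3 and Ccr2, the ratio was larger on array 2. With the processed signals the log2 ratios of Cxcr5 were 2.52 and 2.60. The named genes nearest to Cxcr5 over both arrays were the death regulator gene Bbc3 (distance 0.06), the kinase gene Map3k8 (0.06) and the G protein signalling regulator gene Rgs1 (0.16).

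Because B cells express Cxcr5, Cxcr4 and Ccr6, B cell markers were read beside these genes. All 12 markers listed were tested, and 0 were 2-fold higher or lower on both arrays (0.31% and 0.105% of all genes). Of the 12, 4 were positive on both (29.2% of all genes), 4 negative on both (24.1%) and 4 of opposite signs. Their mean log2 ratios ran from -0.48 (Cd79b) to 0.17 (Cd22), with a median of -0.02. Cd79a and Ms4a1, which define B cells, had 0.02 and 0.08, and the antibody gene Ighm had -0.32. Summed spot signals before dye normalisation, most of them from Ighm, were 6420 and 3889 in CD8+CD122+ cells and 4722 and 7527 in CD8+CD122- cells. In RNA of sorted populations, fewer cells of a type and less RNA per cell cannot be told apart, and the same holds for each ratio given here.

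Cxcr4, the receptor for the bone marrow chemokine CXCL12, showed a smaller difference on each of its probes. The brighter probe (A_52_P585124, probe b in the plots) had spot signals of 975 and 582 in CD8+CD122+ cells and 433 and 635 in CD8+CD122- cells on arrays 1 and 2. These signals overlap between the populations, and on array 2 the order turned only after dye normalisation. The log2 ratios were 0.82 and 0.43, with a mean of 0.63 ± 0.27 (SD, n = 2; 1.55-fold). The dimmer probe (A_52_P565353, probe a) had spot signals of 221 and 153 against 159 and 161, and log2 ratios of 0.40 and 0.13 (mean 0.26 ± 0.19). Both probes were positive on both arrays and under 2-fold, and their means differed by 0.36. limma's interval for the brighter probe ran from 0.22 to 1.04 with an adjusted p of 0.705, and for the dimmer from -0.05 to 0.58 with an adjusted p of 0.841.

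Ccr6, the receptor for CCL20 on B cells and interleukin 17-producing T cells, was the member nearest to a ratio of 1. Its spot signals were 181 and 171 in CD8+CD122+ cells and 163 and 208 in CD8+CD122- cells, so that the order of the populations turned between arrays. The log2 ratios were 0.06 and -0.03, with a mean of 0.01 ± 0.06 (SD, n = 2). The 95% interval of limma ran from -0.19 to 0.22 (adjusted p 0.98), on a scale that shrinks the ratios of dim probes. This interval is for the mean log2 ratio between the populations and does not show equal expression.

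**Figure D2:**
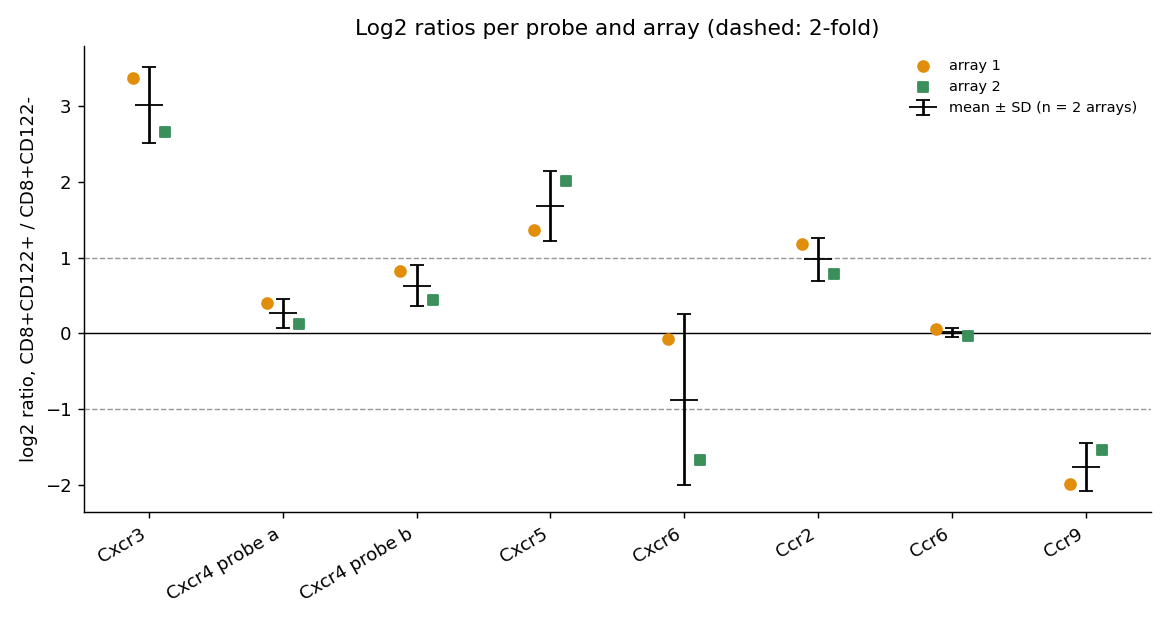
Log2 ratio of CD8+CD122+ over CD8+CD122- for each receptor probe on array 1 (circles) and array 2 (squares), with the mean and SD of n = 2 arrays; dashed lines mark 2-fold. Cxcr3 and Cxcr5 lie above the upper line on both arrays and Ccr9 below the lower line, while Cxcr6 runs from -0.07 on array 1 to -1.68 on array 2.

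Ccr9, the receptor for the gut and thymus chemokine CCL25, was lower in CD8+CD122+ cells. Its spot signals were 247 and 244 in CD8+CD122+ cells and 746 and 908 in CD8+CD122- cells on arrays 1 and 2. Both CD8+CD122+ signals were below both CD8+CD122- signals before dye normalisation, and the CD8+CD122+ signals were nearly the same on both arrays. The log2 ratios were -2.00 and -1.54, with a mean of -1.77 ± 0.32 (SD, n = 2), which is 3.41-fold lower. Only 4 of the 30794 probes had a lower mean ratio. The limma p was 0.00136 before and 0.439 after adjustment, with a 95% interval from -2.24 to -1.30. The named genes nearest to Ccr9 over both arrays were Rgcc (distance 0.24), Plekho1 (0.25) and the integrin gene Itgae (0.33).

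Cxcr6, a receptor of tissue-resident and effector T cells that binds CXCL16, differed between the arrays. Its spot signals were 773 in CD8+CD122+ and 619 in CD8+CD122- cells on array 1, and 431 and 1985 on array 2. CD8+CD122+ cells had the higher signal on array 1 and the lower on array 2, and over both arrays the populations overlapped. The log2 ratio was -0.07 on array 1 and -1.68 on array 2, with a mean of -0.88 ± 1.13 (SD, n = 2), so that the spread exceeded the mean. limma's 95% interval ran from -2.40 to 0.65, and its adjusted p was 0.885. The processed signals showed the same split, with 9834 against 10377 on array 1 and 5521 against 18952 on array 2. A gap between arrays at least as wide as this 1.60 was rare: 88 of the 30794 probes had one (0.286%), and 0.732% of the 1775 probes within 0.5 log2 units of the same brightness. The Cxcr6 difference rests on array 2 alone. By comparison, the gap of the other members ran from 0.09 (Ccr6) to 0.71 (Cxcr3), and the median gap of all probes was 0.12.

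**Figure D3:**
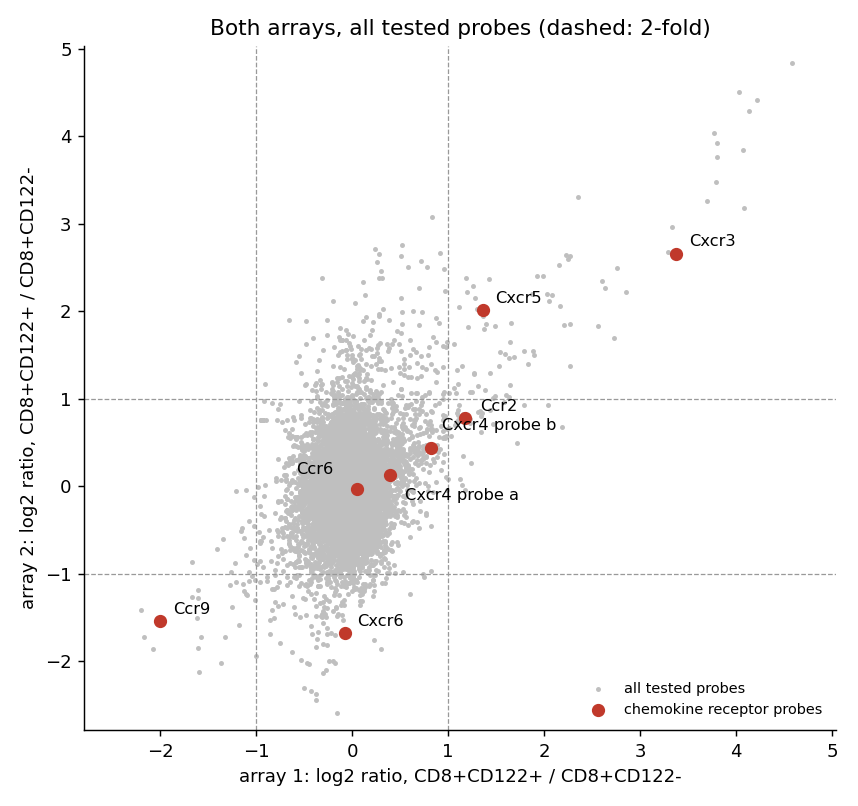
Log2 ratios of CD8+CD122+ over CD8+CD122- on array 1 (x axis) and array 2 (y axis) for the 30794 tested probes (grey) and the 8 receptor probes (red); dashed lines mark 2-fold. Cxcr3 and Cxcr5 lie in the upper right field, Ccr9 in the lower left field, and Cxcr6 off the diagonal.

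Ccr9, Cxcr6 and Ccr2 lie in one cluster of receptor genes on chromosome 9. In RefSeq order on GRCm38.p6, 8 protein-coding genes run from Ccr9 to Ccr2: Ccr9, Fyco1, Cxcr6, Xcr1, Ccr1, Ccr1l1, Ccr3 and Ccr2, with Cxcr6 inside the span of Fyco1. At the Ccr9 end, log2 ratios of the brightest probe of each gene were negative on both arrays. The neighbours there, chosen for their place, were Lztfl1, outside the receptor genes, with -0.51 and -0.74, and the autophagy adaptor gene Fyco1 with -0.18 and -0.96. All 4 tested probes of Fyco1 were negative on both arrays, between -0.19 and -0.10 on array 1 and between -0.98 and -0.29 on array 2, so that Fyco1, like Cxcr6, was further from 0 on array 2. The 2 tested probes of Lztfl1 disagreed, with means of -0.62 and -0.01, and the dimmer had 0.04 on array 1 and -0.05 on array 2. In the middle, Xcr1, the receptor for XCL1, Ccr1l1 and the eosinophil receptor gene Ccr3 had means of 0.02, 0.06 and 0.03, and Ccr1 was too dim to be tested. At the other end Ccr2 (0.98) was positive on both arrays. Of these genes, none but Ccr9 reached 2-fold on both arrays. Probes of neighbouring or overlapping genes were not checked for shared sequence, since probe sequences were not used here.

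**Figure D4:**
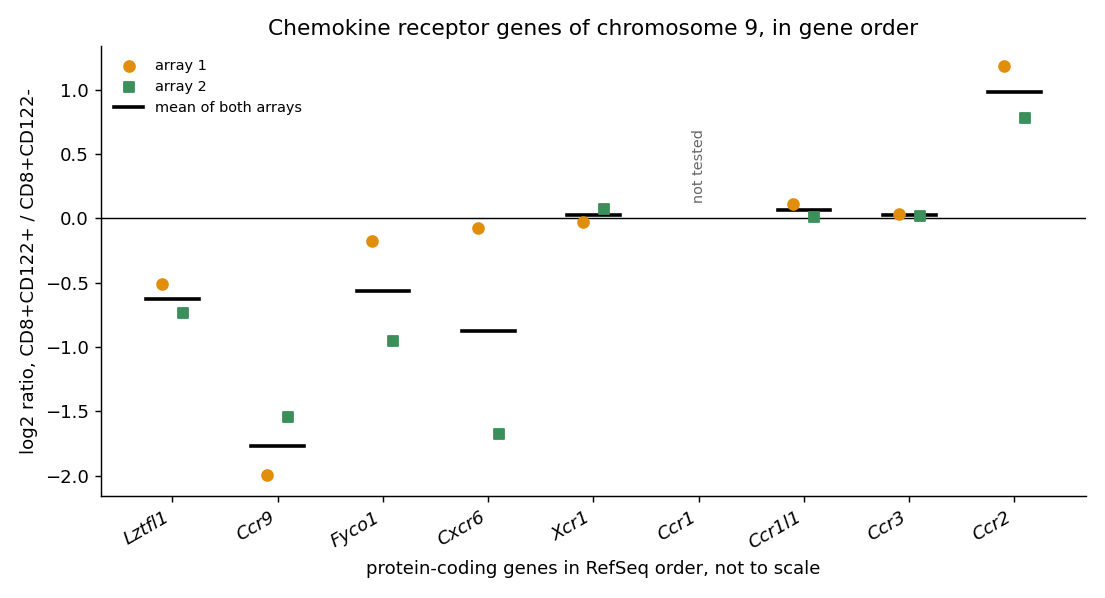
Log2 ratios of CD8+CD122+ over CD8+CD122- for Lztfl1 and the protein-coding genes from Ccr9 to Ccr2 on chromosome 9, in RefSeq gene order and not to scale, by the brightest tested probe on array 1 (circles) and array 2 (squares), with the mean as a bar. The 4 leftmost genes are below 0 on both arrays, Xcr1, Ccr1l1 and Ccr3 lie near 0, and Ccr2 lies above 0.

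The chemokine receptors outside the 7 showed no 2-fold difference. Of 17 listed, 14 were tested by their brightest probe, and 0 were 2-fold higher or lower on both arrays (0.31% and 0.105% of all genes). Of the 14, 6 were positive on both (29.2% of all genes), 1 negative on both (24.1%), and in 7 the sign differed between arrays. Their mean log2 ratios had a median of 0.03. The nonsignalling receptor gene Ccrl2 had log2 ratios of 0.20 and 0.70 (mean 0.45 ± 0.36, SD, n = 2) on its brightest probe. Its other tested probe had a mean of 0.19. Ccr7, the lymph node homing receptor of naive and central memory T cells, had -0.92 on array 1 and 0.97 on array 2 and so had no common direction.

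Ligands of the 7 receptors were mostly dim. Of 12 listed, 6 (Cxcl9, Cxcl11, Cxcl13, Ccl2, Ccl7 and Ccl8) were not tested. Of the 6 tested, 0 were 2-fold apart on both arrays (0.31% upward and 0.105% downward among all genes). There were 2 positive on both (29.2% of all genes) and 3 negative on both (24.1%), with a median of 0.00. Cxcl10, a ligand of CXCR3, had log2 ratios of 0.46 and 1.78 (mean 1.12 ± 0.93; SD, n = 2). Its spot signals were 138 and 317 in CD8+CD122+ cells and 107 and 134 in CD8+CD122- cells. Ccl25, the ligand of CCR9, had -0.29 and -0.32, and Ccl20, the ligand of CCR6, had -0.29 and -0.28.

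Genes that carry the receptor signal were read next. Of 31 listed G protein, kinase, arrestin and GTPase genes 30 were tested. Of the 30, 0 were 2-fold apart on both arrays (0.31% upward and 0.105% downward among all genes). Signs were positive on both for 7 (29.2% of all genes), negative on both for 10 (24.1%) and opposite for 13, with a median of -0.01. Gnai2, the G protein subunit through which these receptors mainly signal, had -0.14 on each array, and Gng2, a gamma subunit, had 0.96 and 0.37. Gna13 had 0.30 and 2.46 on its brightest probe and a mean of 0.13 on its other tested probe. Among 11 tested transcription factor genes with reported roles upstream of these receptors, 2 were 2-fold higher on both arrays and 0 lower. The shares over all genes were 0.31% and 0.105%, and the median of the 11 was 0.02. This list, too, was chosen with earlier results of these data known, so the count is a description only. Tbx21, which encodes the Cxcr3 activator T-bet, had log2 ratios of 2.27 and 1.37 (mean 1.82 ± 0.64; SD, n = 2; 3.53-fold), and the related T-box gene Eomes had 1.63 and 1.02 (mean 1.33 ± 0.43). Bcl6, a factor of CXCR5-bearing follicular T cells, had -0.47 and -1.14 (mean -0.81 ± 0.48), opposite in sign to Cxcr5 on both arrays.

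Markers of the other cell types a spleen sort could hold were read in the same way. Of the CD4 T cell markers, 2 of 3 were tested, with means of -0.02 and -0.02. Among 6 tested NK cell markers the highest mean was 0.54 (Klrk1, which activated CD8 T cells also express), and 0 were 2-fold apart. Among 4 tested erythroid markers the means ran from 0.04 to 0.13. Among 6 tested dendritic cell markers 1 was 2-fold higher (0.31% of all genes), Zbtb46 at 1.37 ± 0.11 (SD, n = 2). Itgax, Flt3 and Siglech had 0.03, 0.05 and 0.03 on their brightest probes, and another Itgax probe had 0.84. T cell markers had means from -0.67 (Cd8b1) to 0.53 (Cd5), with a median of -0.13. On both arrays, 1 of 9 was positive (29.2% of all genes) and 5 of 9 were negative (24.1%). Summed spot signals of these 9, before dye normalisation, were 50588 and 34289 in CD8+CD122+ cells and 37269 and 86549 in CD8+CD122- cells. The part of other cell types in the Cxcr3, Cxcr5 and Ccr9 results was not tested.

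The treatment of the signals changed the sizes of the mean ratios more than their signs. Over 7 other settings the mean log2 ratio ran from 2.90 to 3.29 for Cxcr3, from 1.49 to 2.56 for Cxcr5, from -2.05 to -1.66 for Ccr9, from 0.60 to 0.71 for the brighter Cxcr4 probe, from -0.93 to -0.84 for Cxcr6 and from 0.01 to 0.04 for Ccr6. For Ccr2 it ran from 0.74 to 2.99 over 6 settings. Cxcr3, Cxcr5 and Ccr9 stayed past 2-fold on both arrays in all 7. Settings that changed only the filter could not alter a member's ratio, and the deposited value table repeats the processed signals. The 7 are therefore not 7 separate checks. With median centring in place of loess, the array ratios of Cxcr6 were 0.25 and -2.08 and those of the brighter Cxcr4 probe 1.14 and 0.07. The sign of Cxcr6 on array 1 thus turned. Over all probes tested, the Pearson correlation between the array ratios was 0.381 with loess in the main setting and 0.007 with median centring.

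**Figure D5:**
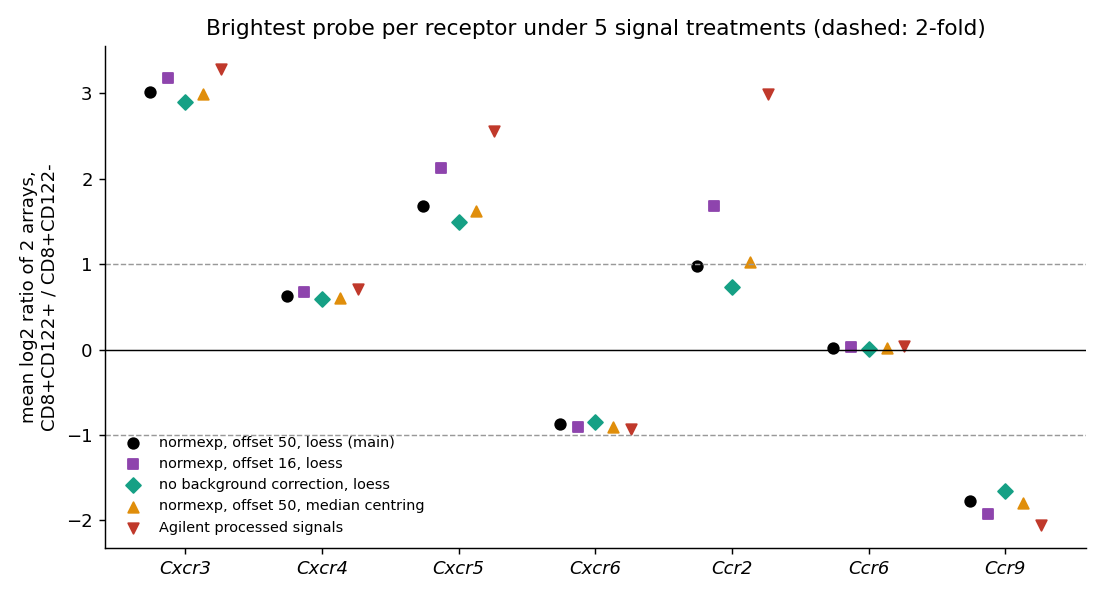
Mean log2 ratio of 2 arrays, CD8+CD122+ over CD8+CD122-, for the brightest probe of each receptor under 5 treatments of the signals (markers); dashed lines mark 2-fold. Cxcr3, Cxcr5 and Ccr9 lie beyond the lines under each treatment, and the means of the dim Ccr2 probe are the most spread, from 0.74 to 2.99.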

How the data were processed

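The members and gene lists were chosen with earlier results of these data known. Per the file headers, the authors read the scans with Agilent Feature Extraction (A.7.5.1 for array 1, 8.1.1.1 for array 2), also named in the submitters' processing notes. The deposited files hold linear intensity values of spots and their background, processed signals (background-subtracted and dye-normalised), a log10 ratio of Cy5 over Cy3 and other flags of 0 or 1. The deposited value table equals these log10 ratios within 1e-04, with the sign turned on array 1. No genome build of the files is given in the sources used here.

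Mean signals were background-corrected against the local median with normexp (offset 50) and normalised by loess within arrays, giving the 2256 control spots of 43790 a weight of 0 (limma 3.58.1, R 4.3.3). Control and outlier spots were left out, spots of a probe averaged and signs turned to CD8+CD122+ over CD8+CD122-. The 30794 probes tested were fitted with lmFit and eBayes, with 1 residual degree of freedom. Two-sided p-values were adjusted over all of them (Benjamini-Hochberg). No dye term was fitted, as it would use up that degree of freedom. The steps were tested on simulated data with independent noise and no simulated difference between trials. That test checks the steps and does not bear on single calls in these data. Probes were named through RefSeq GRCm38.p6 by accession (21930), symbol (5738) or synonym (4356), and 9150 kept the file's name. Named genes were all member probes, Il2rb, the list genes past 2-fold on both arrays, up to 4 others per list with the largest mean of one sign on both arrays, and the 3 genes nearest to each member past 2-fold. Xist, Ccr7, Gnai2, Xcr1, Ccr3, Ccr1l1, Lztfl1, Fyco1, Cd4, Cd79a, Ms4a1, Ighm, Cd14, Adgre1 and Cd68 were named outside this rule, after their values were seen. List genes are given by their brightest tested probe, and a few are not reported here. Alternatives covered background correction, normalisation, filters, the value table, probe choice, moderation and single arrays.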

Additional observations from a re-analysis of the deposited data

How the results depend on the processing

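The counts of member probes past 2-fold on both arrays were 2 higher and 1 lower. They stayed at 2 or 3 higher and at 1 lower under the 8 other settings that use both arrays, and the third was Ccr2. Settings that changed only the filter or the choice of probe left each member ratio as it was. The value table repeats the processed signals, so the 8 are not separate checks. On single arrays, a value with no test, 2 to 3 member probes were higher and 1 to 2 lower, the additional ones being Ccr2 on array 1 and Cxcr6 on array 2. Over all probes, 78 were higher and 25 lower. The processed signals and the deposited value table both gave 199 and 85, an offset of 16 gave 120 and 42, and median centring gave 80 and 16. Single arrays gave 109 to 336 higher and 42 to 219 lower. limma called 0 probes, and 1884 at an unadjusted p under 0.05. With the offset of 16 it called 6, none of them a member (smallest member adjusted p 0.230), and 0 under the 9 other settings fitted. The cause of these shifts was not tested. The limma fit is itself paired, since each array sets both populations against each other, and no further replicate block could be fitted with 1 ratio per trial. Signal over background limits Ccr2 most.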
